A study of Mus musculus with 2 samples.

Results

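The brush border digestive enzymes described here are 9 genes whose products stand on the apical membrane of absorptive enterocytes. They were chosen by symbol (Lct, Sis, Mgam, Treh, Alpi, Anpep, Dpp4, Mep1a and Mep1b), and all 9 were found among the 19294 genes of the count table. Transcripts were counted by mRNA-seq in mouse intestinal organoids (mIOs), which are epithelial cultures grown from intestinal crypts in Matrigel with EGF, Noggin and R-spondin. Both cultures carry the Lgr5-EGFP-IRES-creERT2 allele, by which a reporter and an inducible Cre are expressed from the Lgr5 stem cell locus, and the study took its crypts from the jejunum. One library is from untreated control mIOs and 1 is from mIOs treated with dextran sulfate sodium (DSS), a polysaccharide that is toxic to the epithelium. The labels give day 4 for both. The DSS concentration of the sequenced culture and the age of the animals are not given in the sources used here. With 1 library per condition there is no replicate, so no difference has a replicate check and no test between conditions was made.

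The brush border is the layer of microvilli on the luminal face of the enterocyte, and it carries membrane-anchored hydrolases that finish the digestion of food. Disaccharidases split sugars into the hexoses taken up by the cell, peptidases trim short peptides to amino acids and dipeptides, and intestinal alkaline phosphatase removes phosphate from dietary and bacterial molecules. These genes are switched on as cells leave the crypt and differentiate, so they are widely used as markers of mature enterocytes. Lactase is the disaccharidase of the suckling period, whereas sucrase-isomaltase and trehalase appear at weaning.

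The samples are labelled as intestinal stem cells, while both libraries held transcripts of several epithelial cell types. All 14 enterocyte markers were counted in both, and they summed to 4067 CPM (the count scaled to library size with TMM factors) in control mIOs and 32114 CPM in DSS-treated mIOs. The stem cell marker Lgr5 stood at 263 CPM in control mIOs and at 19.2 CPM in DSS-treated mIOs. The total was 65493032 counts for control mIOs and 59746968 for DSS-treated mIOs, so counting error is small for these genes. The lowest count in either column of the table is 1, and a gene with no count in one of the cultures is therefore not listed. Values for the 9 enzymes are therefore ratios of scaled counts with exact Clopper-Pearson 95% intervals, which cover counting error only. A higher value in a bulk library can come from more cells of a type or from more RNA per cell, and these cannot be told apart here.

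Upstream sequences are shown for 4 of the genes, namely the most abundant enzyme of the DSS library (Sis), the least abundant enzyme of both (Lct), and those with the highest (Alpi) and the lowest (Anpep) ratio between the libraries. Each is the run of 250 bases before the transcription start, written 5′ to 3′ on the strand of the gene, from RefSeq on GRCm38.p6. The build behind the counts is not given in the sources used here. The Sis window is chr3:72967864-72968113, the Lct window chr1:128328319-128328568, the Alpi window chr1:87101607-87101856 and the Anpep window chr7:79848211-79848460, and all 4 lie on the minus strand. Capitals mark matches to letters taken as motifs of intestinal transcription factors or of the basal machinery, searched on both strands. The letters taken for CDX factors read TTTATG. For the GATA factors a first motif reads AGATAA, while a second one differs from it by its opening letter and reads TGATAA. The HNF4 motif reads CAAAGTCCA, and the TATA box was searched as TATAAA.
Sis: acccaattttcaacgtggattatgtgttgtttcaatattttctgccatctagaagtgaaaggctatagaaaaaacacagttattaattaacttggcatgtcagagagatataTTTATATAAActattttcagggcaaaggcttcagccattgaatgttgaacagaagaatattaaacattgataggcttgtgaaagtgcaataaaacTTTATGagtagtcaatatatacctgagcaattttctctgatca
Lct: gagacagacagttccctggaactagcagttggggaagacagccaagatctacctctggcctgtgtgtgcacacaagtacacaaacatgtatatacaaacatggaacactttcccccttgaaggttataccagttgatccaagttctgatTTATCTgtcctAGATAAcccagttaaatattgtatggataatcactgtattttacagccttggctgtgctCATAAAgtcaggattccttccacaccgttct
Alpi: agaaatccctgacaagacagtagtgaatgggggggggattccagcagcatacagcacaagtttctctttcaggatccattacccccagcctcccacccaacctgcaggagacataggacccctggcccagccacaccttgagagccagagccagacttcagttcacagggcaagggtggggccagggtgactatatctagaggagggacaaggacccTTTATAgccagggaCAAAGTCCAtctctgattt
Anpep: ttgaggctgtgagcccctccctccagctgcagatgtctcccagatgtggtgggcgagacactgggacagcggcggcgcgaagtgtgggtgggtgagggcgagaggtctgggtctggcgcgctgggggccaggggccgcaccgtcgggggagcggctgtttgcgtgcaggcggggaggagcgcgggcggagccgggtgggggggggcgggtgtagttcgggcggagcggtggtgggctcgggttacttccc

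The Sis window held the CDX letters from -43 to -38, counted from the start. It also held 2 overlapping TATAAA matches, from -138 to -133 (opposite strand) and from -134 to -129. In the Lct window there were 2 AGATAA matches, from -101 to -96 (opposite strand) and from -90 to -85. The Lct window also held the CDX letters from -31 to -26 (opposite strand). The Alpi window held CAAAGTCCA from -19 to -11. It matched TATAAA from -33 to -28 only on the opposite strand, so the printed strand reads TTTATA there. None of the letters searched occurred in the Anpep window. Anpep has 4 annotated coding transcripts, and only 1 window per gene was searched. Whether the starts used here are those active in these cultures was not tested. Windows were found for 8 of the 9 genes. The HNF4 letters were in 2 of these 8 (Alpi and Treh), against 0.384% of 32851 windows of the same length. Either GATA motif was in 4 of 8 (Lct, Mgam, Dpp4 and Mep1a), against 16.6%, and TATAAA was in 4 of 8 (Sis, Mgam, Alpi and Dpp4), against 12.4%. These counts take matches on either strand and at any position. The TATAAA of Mgam lay from -30 to -25 and that of Dpp4 from -227 to -222, both on the strand of the gene. The CDX letters were in 2 of 8 (10.8% of all windows). A match is a description of letters and not a measured binding site.

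All 9 enzymes were higher in DSS-treated mIOs than in the control. The log2 ratio of scaled counts, DSS over control, ran from 1.24 (Anpep) to 3.94 (Alpi), with a median of 2.37, while the median of the 17235 genes that reached 10 counts in either library was -0.06. A log2 ratio of 1 or more was reached by 9 of 9 enzymes and by 19.3% of those genes. A log2 ratio of 2 or more was reached by 6 of 9 enzymes (Alpi, Mep1b, Sis, Mgam, Treh and Lct) and by 7.87% of those genes. All 9 were above 0, as were 48% of those genes. None of the enzymes was at -1 or less, where 20.2% of the genes lay, or at -2 or less, where 6.54% lay. The enzymes were chosen as a family and not by their values, but with earlier results of these data known. Scaling by total counts lowered every log2 ratio by 0.26, which took Anpep to 0.99 and left 8 of 9 enzymes at 1 or more. Of the genes past 2 or -2, 54.6% were higher in DSS-treated mIOs with TMM factors and 41.7% with total counts.

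**Figure D1:**
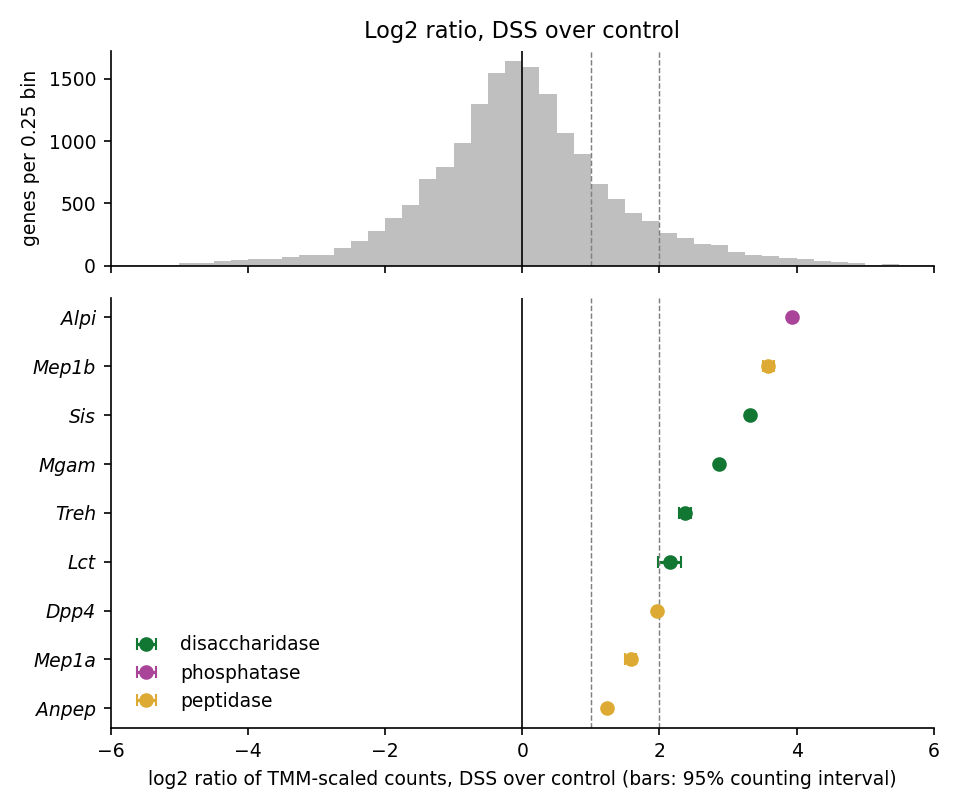
The lower panel plots the log2 ratio of TMM-scaled counts (DSS over control) of each enzyme, with bars for the 95% counting interval, and the upper panel a histogram of the 17235 genes that passed the count minimum, of which 20 lie beyond the axis limits. All 9 enzymes sit right of 1 (first dashed line), and 6 of them right of 2 (second dashed line).

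Together the 9 genes took 0.271% of all counts in the control library (95% exact interval 0.270 to 0.272) and 1.428% in DSS-treated mIOs (1.425 to 1.431). Their summed counts were 177551 in control mIOs and 853464 in DSS-treated mIOs, a log2 ratio of 2.654 (2.646 to 2.661). Sis and Mgam supplied 88568 of these counts in control mIOs and 597961 in DSS-treated mIOs. Without this pair, the 7 other genes summed to 88983 and 255503 counts, a log2 ratio of 1.91. The difference was thus larger with the pair than without it.

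The summed difference of the disaccharidases was larger than that of the peptidases, and below that of the phosphatase Alpi. Their 4 genes summed to 1260 CPM in control mIOs and 11047 CPM in DSS-treated mIOs, a log2 ratio of 3.13 (interval 3.12 to 3.14). The 4 peptidases summed to 1131 CPM and 3179 CPM, a log2 ratio of 1.49 (1.48 to 1.503). The intervals of the 2 sums did not overlap, but they cover counting error only and hold no variation between cultures or between genes. The sums are dominated by the abundant genes of each class. The median of single log2 ratios was 2.62 for the disaccharidases, which ran from 2.15 to 3.32, and 1.78 for the peptidases, which ran from 1.24 to 3.59, so the ranges overlapped through Mep1b.

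Sis encodes sucrase-isomaltase, which splits sucrose and the branch points of starch fragments. It had 50761 counts in control mIOs and 386101 in DSS-treated mIOs, or 709 and 7062 CPM. Sis ranked 149 by count among all genes of the control library and 8 in DSS-treated mIOs, where it took 0.646% of all counts (95% exact interval 0.644 to 0.648). The log2 ratio was 3.32, with an interval from 3.30 to 3.33, which is a fold of 9.96.

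Mgam encodes maltase-glucoamylase, the partner of sucrase-isomaltase in the release of glucose from starch. It had 37807 counts in control mIOs and 211860 in DSS-treated mIOs, or 528 and 3875 CPM, and moved from rank 199 to rank 22. The log2 ratio of Mgam was 2.87 (interval 2.86 to 2.89). These starch-digesting enzymes, which are close relatives by sequence, were thus both among the 22 genes with the most counts after DSS. Per kilobase of the longest transcript, the level of Sis was 1.46 times that of Mgam in control mIOs and 1.99 times in DSS-treated mIOs. Per kilobase of the median transcript the order in control mIOs turned, with Mgam at 138 and Sis at 120 CPM per kilobase.

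Treh, which encodes the trehalase that splits the fungal and insect sugar trehalose, was a much rarer transcript. It had 1202 counts in control mIOs and 4759 in DSS-treated mIOs, or 16.8 and 87.0 CPM. Its log2 ratio was 2.37 (2.28 to 2.47), the median of the 9 genes. Of the 50-base stretches of the Treh transcript, 1.55% also occur in another annotated gene, so shared reads can touch only a small part of it.

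Lct encodes lactase, the enzyme of milk sugar. It had 378 counts in control mIOs and 1283 in DSS-treated mIOs, or 5.28 and 23.5 CPM, and was the rarest of the 9 genes in both. The log2 ratio was 2.15, with an interval from 1.98 to 2.32 that spans the line of 2. Lct thus differed between the libraries in the same direction as the other disaccharidases, at a level far below them. Per kilobase, Sis was 139 times above Lct in control mIOs and 312 times above it in DSS-treated mIOs.

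Alpi, the intestinal alkaline phosphatase, showed the highest ratio of the 9 genes. It had 6473 counts in control mIOs and 75636 in DSS-treated mIOs, or 90.4 and 1383 CPM, and moved from rank 2058 to rank 78. The log2 ratio was 3.94 (3.90 to 3.97), a fold of 15.3, and 98.8% of the genes tested had a lower ratio. Alpi has close relatives on the same chromosome that can share reads, and 2.40% of the 50-base stretches of its transcript occur in Akp3, Alppl2 or a pseudogene. Akp3, another intestinal alkaline phosphatase, had 1782 and 3537 counts and a log2 ratio of 1.38 (1.29 to 1.46). Alppl2, a placental-like relative, had 15 and 320 counts and a log2 ratio of 4.80 (4.06 to 5.66). The intestinal phosphatases were therefore unequal in their difference, since the level of Alpi per kilobase was 2.61 times that of Akp3 in control mIOs and 15.4 times in DSS-treated mIOs. The tissue-nonspecific phosphatase Alpl had 39 and 107 counts and a log2 ratio of 1.84 (1.30 to 2.41).

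Anpep, which encodes aminopeptidase N and removes single amino acids from the start of peptides, showed the lowest ratio. It had 63995 counts in control mIOs and 115649 in DSS-treated mIOs, or 894 and 2115 CPM. By count it was the most abundant of the 9 genes in the control library, at rank 118, and it stood at rank 48 in DSS-treated mIOs. The log2 ratio was 1.24 (1.23 to 1.26), a fold of 2.37. Anpep was thus the only enzyme of the 9 that left the side above 1 under an alternative scaling.

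Dpp4 encodes dipeptidyl peptidase 4, which cuts dipeptides from peptides with a proline or alanine near the start and also inactivates incretin hormones. It had 13651 counts in control mIOs and 40788 in DSS-treated mIOs, or 191 and 746 CPM. The log2 ratio was 1.97 (1.94 to 1.996), just under the line of 2. Dpp4 passed that line with upper quartile factors, where it was at 2.06, and with centring on the median of all genes. Dpp4 and Anpep are also made by some stromal and immune cells. Of 12 immune markers, 7 were not listed in the table (Ptprc and Cd3e among them), and the 4 markers that reached 10 counts summed to 14.1 CPM in control mIOs and 24.6 CPM in DSS-treated mIOs. Of 9 mesenchymal markers, 4 were not listed (Col1a2, Col3a1, Dcn and Lum), and the 4 tested summed to 6.62 and 35.9 CPM, of which Vim made up 5.23 and 34.0 CPM. The part of such cells in the values of Dpp4 and Anpep was not tested.

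The meprins are zinc metalloproteases that process peptides, mucus proteins and cytokines at the brush border, as an α subunit (Mep1a) and a β subunit (Mep1b). Mep1a had 1851 counts in control mIOs and 4242 in DSS-treated mIOs, or 25.9 and 77.6 CPM, with a log2 ratio of 1.58 (1.51 to 1.66). Mep1b had 1433 and 13146 counts, or 20.0 and 240 CPM, with a log2 ratio of 3.59 (3.51 to 3.67). Per kilobase of the longest transcript, Mep1b was 1.005 times Mep1a in control mIOs and 4.02 times in DSS-treated mIOs, a difference of 2.001 between their log2 ratios that does not depend on the library scaling. The near equality in the control rests on that length, since the levels there were 13.8 (Mep1b) and 8.78 (Mep1a) CPM per kilobase with the median transcript and 9.48 and 11.3 with the coding length.

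Ranked by log2 ratio, the order was Alpi, Mep1b, Sis, Mgam, Treh, Lct, Dpp4, Mep1a and Anpep. The counting intervals of neighbors in this order did not overlap, apart from those of Treh with Lct and of Lct with Dpp4. These intervals hold no variation between cultures, so the order describes the pair of libraries only.

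To compare the enzymes with each other, CPM was divided by the length of the longest protein-coding transcript in kilobases. In the control library Anpep led at 235 CPM per kilobase, followed by Sis at 119, Mgam at 81.4, Alpi at 38.7 and Dpp4 at 36.2. Mep1b at 8.76, Mep1a at 8.72 and Treh at 8.20 lay close together, and Lct was lowest at 0.855. In the DSS library Sis led at 1186 CPM per kilobase. Mgam at 597, Alpi at 592 and Anpep at 557 lay close together behind it, followed by Dpp4 at 142, Mep1b at 105, Treh at 42.5, Mep1a at 26.2 and Lct at 3.80. Anpep was first in the control library and behind Sis, Mgam and Alpi after DSS. With coding length or the median transcript length in place of the longest transcript, Anpep was still first in control mIOs, Sis first in DSS-treated mIOs and Lct last in both. Other places moved with the length used, namely those of Sis and Mgam, of Alpi and Dpp4, and of the meprins and Treh in control mIOs, and those of Mgam, Alpi and Anpep and of Dpp4 and Mep1b in DSS-treated mIOs.

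**Figure D2:**
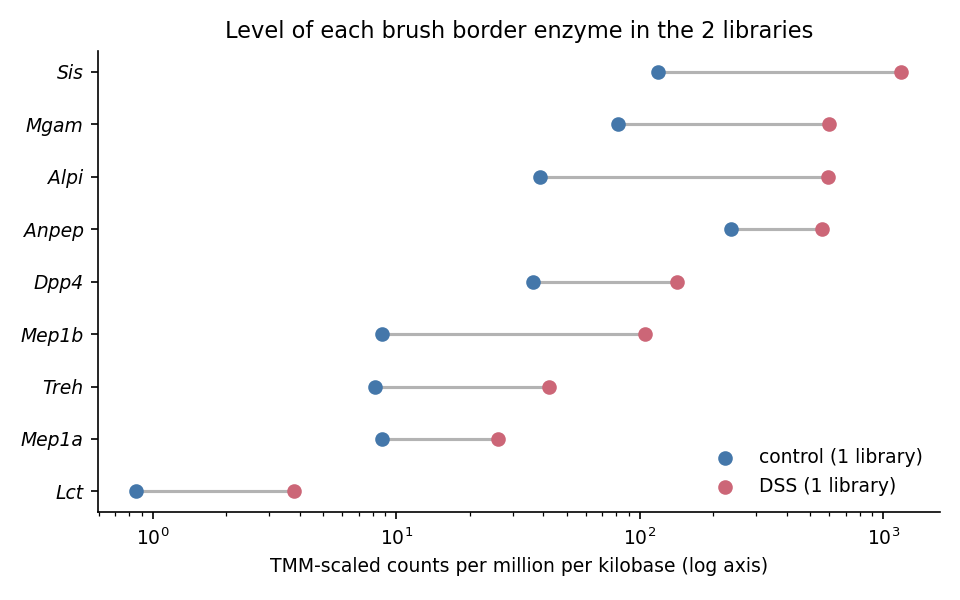
The plot gives the level of each enzyme as TMM-scaled CPM per kilobase of transcript on a log axis, with a point for each library, joined by a line. The DSS point lies right of the control point for all 9 enzymes, by the shortest distance for Anpep and the longest for Alpi.

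The mixture of enzyme transcripts was therefore different in DSS-treated mIOs. Of the summed level of the 9 genes per kilobase of the longest transcript, Anpep made up 43.8% in control mIOs and 17.1% in DSS-treated mIOs. Sis made up 22.2% and 36.5%, Alpi 7.20% and 18.2%, and Mgam 15.1% and 18.4%. The share of the disaccharidases was 39.0% in control mIOs and 56.3% in DSS-treated mIOs, and that of the peptidases 53.8% and 25.5%. Lct stayed under 1% of the sum in both libraries, at 0.159% and 0.117%. The summed level itself was 537 CPM per kilobase in control mIOs and 3252 in DSS-treated mIOs, so the lower share of Anpep went with a higher level of its transcript. All these shares rest on the longest transcript and move with the length used. With the median transcript, Anpep was at 429 CPM per kilobase in control mIOs and 1015 in DSS-treated mIOs, and Mgam at 138 and 1014.

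**Figure D3:**
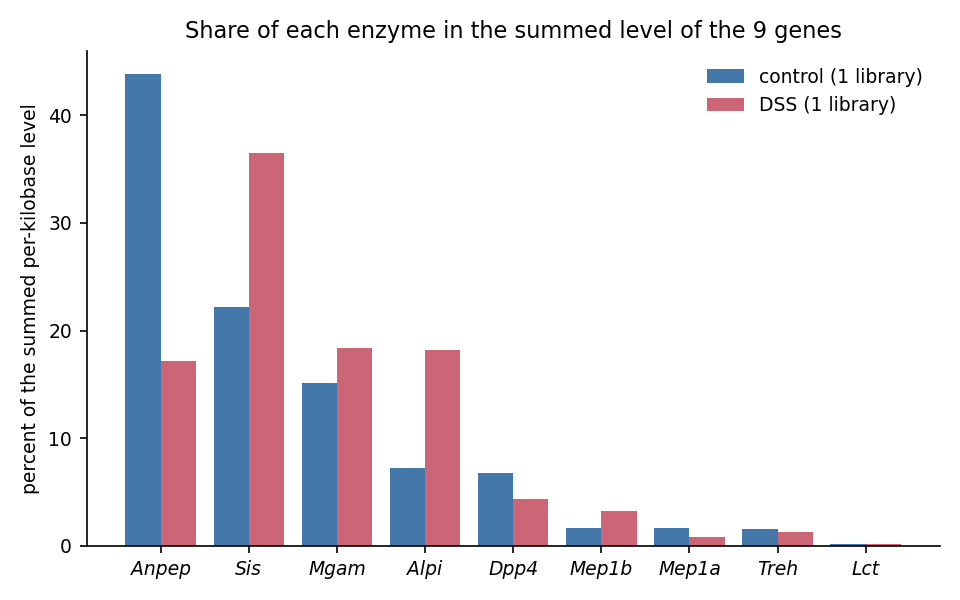
Bars give the percent of the summed level of the 9 enzymes that each made up in the control library and in DSS-treated mIOs (1 library each). Levels are per kilobase of the longest transcript. Anpep is the tallest bar of the control library at 43.8%, and Sis that of the DSS library at 36.5%.

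Other hydrolases of the brush border showed the same direction. Of 18 listed genes 16 were tested, and 15 of them were above 0, 13 at 1 or more and 11 at 2 or more, with a median log2 ratio of 3.10. Over all genes tested the shares were 48%, 19.3% and 7.87%, and they also stand beside the counts of the lists that follow. With at least 10 counts required in both libraries, which leaves out Tmprss15, the median of the list was 2.96. The members with the largest differences were Tmprss15, Enpp3 and Alppl2. Enpp3, an ectonucleotidase, had 241 and 5380 counts and a log2 ratio of 4.87 (4.68 to 5.06). Tmprss15, which encodes the enteropeptidase that activates trypsinogen, had 2 counts in control mIOs and 62 in DSS-treated mIOs, so its log2 ratio of 5.34 has a wide interval from 3.43 to 8.42. Enpep, which encodes aminopeptidase A and is a relative of Anpep, had 4007 and 37374 counts and a log2 ratio of 3.61 (3.56 to 3.66). Enpep was thus well above Anpep in ratio and below it in level, at 163 against 557 CPM per kilobase in DSS-treated mIOs. The carboxypeptidase gene Cpm, named after its value was seen, was the exception below 0, with 867 and 369 counts and a log2 ratio of -0.84. The sign of Plb1, at 0.24, turned with total counts.

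Other close relatives of the 9 enzymes ranged widely. Dpp8 and Dpp9, cytosolic dipeptidyl peptidases, were at -0.22 and -0.10, and the lysosomal Dpp7 was at 0.93. Among the aminopeptidases, Npepps was at -0.02, Erap1 at -0.54 and Lnpep at 0.65. The lysosomal acid α-glucosidase gene Gaa was at -0.98, with 6995 and 2700 counts, and the neutral α-glucosidase gene Ganc was at 1.20. The lactase-like gene Lctl had 4 and 16 counts and a log2 ratio of 2.39, with a wide interval from 0.76 to 4.43. Over all 13 relatives tested, Akp3, Alppl2, Alpl and Enpep included, the median was 0.93, with 8 above 0. With at least 10 counts required in both libraries, which leaves out Lctl, the median was 0.79. The sign of Npepps turned with upper quartile factors or centring on the median of all genes. Fap, Dpp10 and Mgam2-ps were not listed in the table.

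Most of the transporters that take up the products of these enzymes were also higher in DSS-treated mIOs. All 12 listed nutrient transporters were tested, with 11 above 0, 10 at 1 or more, 7 at 2 or more and a median of 2.30. Slc15a1, the peptide transporter that takes up what the peptidases release, had 396 and 7660 counts and a log2 ratio of 4.66 (4.52 to 4.81). Slc6a20a, an amino and imino acid transporter, was at 3.26, and Slc2a2, the glucose and fructose carrier GLUT2, at 2.98. Slc1a1 was the exception below 0, at -0.69 with 4557 and 2165 counts. Of 10 genes that handle sugars inside the cell, 9 were above 0 and 5 at 1 or more, with a median of 1.16, led by the glycerol kinase gene Gk at 2.99 and by G6pc at 2.44. Under total counts 7 of these 10 were above 0, and Galk1 was among those that turned sign.

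Structural genes of the microvillus differed by less. All 14 that were tested were above 0, 9 at 1 or more and 3 at 2 or more, with a median of 1.32. Vil1, the actin bundler villin, had 36438 and 66364 counts, or 509 and 1214 CPM, and a log2 ratio of 1.25 (1.24 to 1.27), close to that of Anpep. By RT-PCR, in contrast, the study reported little difference in Vil1, Muc2 and Chga between DSS-treated and control mIOs. In the libraries described here Muc2 was at 4.98 and Chga at 2.60. The study's RT-PCR also gave lower Lgr5 and Lyz in DSS-treated mIOs, and here Lgr5 was at -3.78 and Lyz1 at -1.06. What separates the 2 assays for Vil1, Muc2 and Chga was not tested. The brush border myosin gene Myo1a was at 3.17, and the protocadherins of the links between microvilli, Cdhr5 and Cdhr2, were at 2.17 and 2.001. Myo7b, at 0.07, turned sign with total counts. The other 8 enzymes all had higher ratios than villin.

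Of 10 genes for the apical delivery or anchoring of brush border proteins, 9 were above 0 and 4 at 1 or more, with a median of 0.85. Pdzk1, an apical scaffold, was at 4.18 with 232 and 3214 counts, its partner Slc9a3r1 at 1.61, and the motor gene Myo5b at 1.42. Mal2 and Stxbp2 turned sign between scalings.

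The genes of transcription factors known to act on enterocyte genes were mixed. Of 19 tested, 13 were above 0, 6 at 1 or more and 1 at -1 or less, with a median of 0.39. Creb3l3 was highest at 4.06, with 1471 and 18787 counts, followed by Hnf4g at 2.24, with 5005 and 18020 counts, and Klf4 at 1.47. The factors whose letters were searched upstream of the enzymes were chosen for mention after the values were seen. Hnf4a was at 0.05 and turned sign between scalings. Gata4 was at -0.18, Gata6 at 0.39 and Gata5 at 1.03 (0.92 to 1.14), with 1086 and 1693 counts for Gata5. Cdx2 had 12798 and 3840 counts and a log2 ratio of -1.35 (-1.40 to -1.30), and Cdx1 was at -0.61. Transcripts of these factors were counted, and their binding was not measured.

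**Figure D4:**
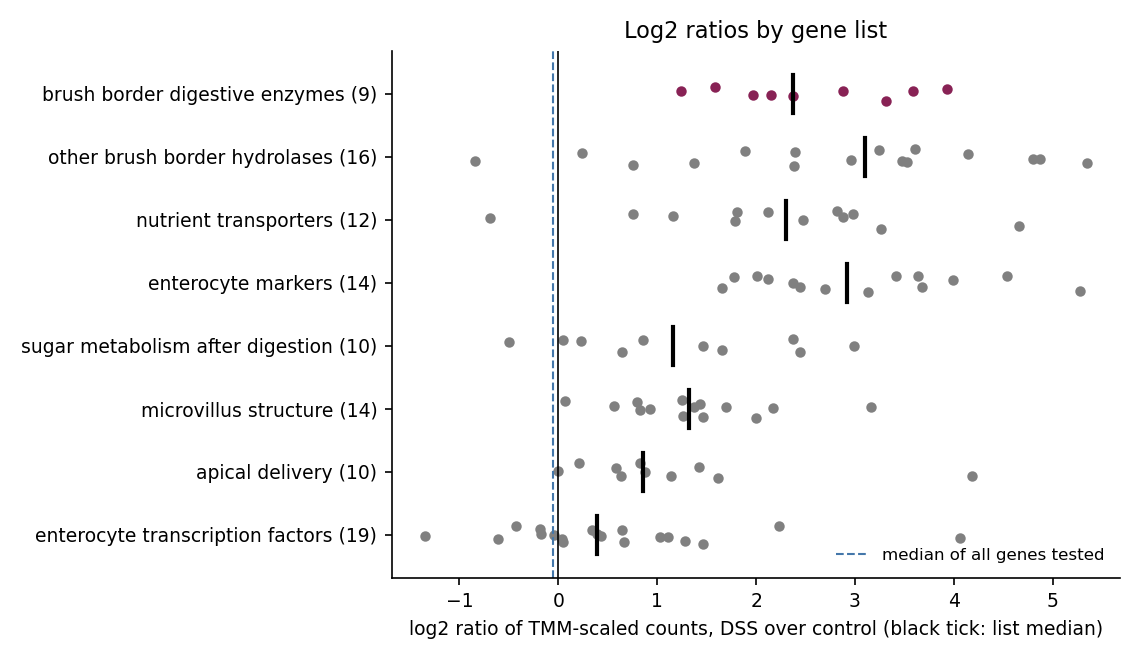
Each point is the log2 ratio (DSS over control) of 1 gene that reached 10 counts in either library, the black ticks mark list medians, and the number of genes stands in brackets. The enzymes have a median of 2.37, near that of the nutrient transporters at 2.30 and above those of microvillus structure at 1.32 and of the transcription factors at 0.39.

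Marker lists of epithelial cell types differed between the libraries together with the enzymes. All 14 enterocyte markers were at 1 or more, with a median of 2.92, led by Apoa1 at 5.27, Apoa4 at 4.54 and Krt20 at 3.99. The 10 genes of the villus tip had a median of 2.58, led by Ada at 5.30, and 10 of 10 were above 0. Of 9 genes of the villus base and crypt, 6 were at -1 or less and 3 above 0 (Lypd8 at 1.94, Nlrp6 at 0.60 and Reg3g at 0.41), with a median of -2.98. Those at -1 or less were led by Olfm4 at -9.59, Ascl2 at -4.31 and the cycling gene Mki67 at -4.02. Goblet cell markers had a median of 3.16, with 8 of 8 above 0 and their sum at 866 CPM in control mIOs and 11711 CPM in DSS-treated mIOs. Enteroendocrine markers had a median of 2.27, with 10 of 12 above 0 and sums of 892 and 4586 CPM. The progenitor gene Neurog3 was 1 of the 2 below 0, at -3.14 with 692 and 60 counts. Paneth cell markers other than defensins had a median of -0.92, with 1 of 7 above 0 (Spink1 at 3.74), and sums of 636 and 423 CPM. Tuft cell markers had a median of -1.20 over 5 genes, and sums of 9.04 and 4.46 CPM. The part of the cell mixture in the values of the 9 enzymes was not tested.

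Among the listed genes outside the 9 enzymes that reached 100 counts in either library, Nt5e (2.39) was 1 of the 3 whose log2 ratio lay nearest to the median of the enzymes. The measure is the distance between log2 ratios over 2 libraries. Nt5e, a nucleotidase, had 191 and 764 counts.

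Genes that meet the meprins and DPP4 in known reactions were given by list. Of 7 tested regulators and substrates of the meprins, 6 were above 0 and 5 at 2 or more, with a median of 3.33. Among these, the mucin gene Muc2, whose product is cut by meprin β, was at 4.98, and the basement membrane gene Nid1 was at 4.80. Fetub was below 0, at -1.54 with 148 and 39 counts, and Sdc1, at 0.23, turned sign between scalings. With at least 10 counts required in both libraries the median of this list was 3.26. Of 6 tested substrates and partners of DPP4, 5 were above 0 and 4 at 2 or more, with a median of 2.92. Ada, whose product is a known binding partner of DPP4 in humans, had 629 and 18984 counts and a log2 ratio of 5.30 (5.19 to 5.42). The incretin precursor Gcg was at 3.04, with 2903 and 18298 counts, and Cxcl11 was at 2.93 (1.99 to 4.00), with 11 and 64 counts. Cxcl10 went the other way, at -1.45 (-2.90 to -0.20) with 25 and 7 counts. These lists share genes with the goblet, enteroendocrine and villus tip lists.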

How the data were processed

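Stranded poly(A) libraries of 1 control culture of mIOs and 1 treated with DSS were sequenced. The deposited values are read counts for each gene that were not normalized. HISAT2 and StringTie are named in the submitters' processing notes, and their versions, the genome build and the counting settings are not given in the sources used here. Although their names say FPKM, the per-sample files repeat the counts of the joint table for all 19294 genes, so no FPKM value was used.

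Counts were scaled with TMM factors (1.09 control, 0.915 DSS) in edgeR 4.0.16 under R 4.3.3. Log2 ratios (DSS over control) were given with exact Clopper-Pearson 95% intervals (scipy 1.17.1), which cover counting error only. No count was 0, and a gene had to reach 10 counts in either library, which left 17235 genes. Since each condition is 1 library, conditions were not tested against each other. Levels were divided by transcript lengths of GENCODE vM21. Upstream sequences came from RefSeq (GRCm38.p6), and 50-base stretches were compared with all GENCODE vM21 transcripts. The ratio and interval code was tested on simulated data.

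The enzymes and 21 context lists were chosen with earlier results of these data known. Named genes are the 9 enzymes, their close relatives, Vil1, up to 3 genes per list that had the largest absolute log2 ratio and reached 50 counts in either library, and the 3 genes nearest to the enzymes' median. Some genes that this rule names are not reported here. The markers not listed in the table, Lgr5, Chga, Cpm, Plb1, Myo7b, Mal2, Stxbp2, Galk1, Lypd8, Nlrp6, Reg3g, Fgf15, Otc and the transcription factors other than Creb3l3, Hnf4g and Klf4 were named after the data were seen. So were Cxcl10, Sdc1, Fetub and Slc1a1. Other settings tried were scaling by total counts, by upper quartiles or by the size factors of DESeq2 1.42.0, centring on the median of all genes, a prior count of 2, other filters, leaving out Alpi and other transcript lengths.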

Additional observations from a re-analysis of the deposited data

How the results depend on the processing

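The log2 ratios of the 9 enzymes kept their sign in all 45 values over 5 alternatives (DESeq2 size factors, total counts, upper quartile factors, centring on the median of all genes and a prior count of 2). With total counts the median of the enzymes was 2.12 and the log2 ratio of their summed counts 2.40, and 8 of 9 were at 1 or more and 5 at 2 or more. The log2 ratio of the summed counts was 2.74 with upper quartile factors and 2.71 with centring, and 7 of 9 enzymes were at 2 or more with either. Without Alpi, which has close relatives in the table, the median was 2.26 and the summed log2 ratio 2.57. With coding length in place of the longest transcript, 4 of 9 enzymes kept their place in the order of levels in the control library and 6 in DSS-treated mIOs, and with the median transcript length 7 in control mIOs and 4 in DSS-treated mIOs. Counts of genes at 2 or more ran from 917 (at least 10 counts in both libraries) to 1472 (upper quartile factors), against 1356 as reported, and those at -2 or less from 899 (the same filter) to 1521 (total counts), against 1127. The medians of the 21 context lists kept their sign in all 147 recomputed values, and 30 of these moved by 0.1 or more. The largest move was that of the mesenchymal markers, from 1.51 to 0.32 with at least 10 counts in both libraries. No paired analysis was possible because each condition is 1 library. The depth leaves little counting error for the 9 enzymes, and the missing replicate is the limit of every value.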

Other observations

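Genes that separate suckling from adult enterocytes, and those of the distal small intestine, were set beside Lct, Sis and Treh as values only. Of 8 tested genes of the suckling type, 5 were above 0 and 2 at 1 or more, with a median log2 ratio of 0.56. Cubn, an apical uptake receptor, was highest, with 85 counts in control mIOs and 820 in DSS-treated mIOs and a log2 ratio of 3.66 (3.33 to 4.00). The neonatal Fc receptor gene Fcgrt was at 1.52, with 202 and 444 counts, and the lysosomal β-galactosidase gene Glb1 at -0.92, with 9037 and 3636 counts. Prdm1, which encodes the repressor that holds the suckling program, had 211 and 252 counts and a log2 ratio of 0.64 (0.38 to 0.92).

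The 5 genes of the adult type were all above 0, and 4 of them were at 2 or more, with a median of 2.82. Arg2, an arginase of the adult epithelium, had 2348 and 14382 counts and a log2 ratio of 3.003, and Slc2a5, the fructose carrier, was at 2.82. Otc was the exception below 1, at 0.34. Lct, the suckling disaccharidase, was at 2.15 and Sis and Treh at 3.32 and 2.37, so the disaccharidases of both ages were higher in DSS-treated mIOs.

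The cultures came from jejunal crypts, and 4 of 5 genes typical of the distal small intestine were counted. All 4 were above 2, with a median of 3.16. Slc10a2, the ileal bile acid transporter, had 78 and 932 counts and a log2 ratio of 3.97 (3.63 to 4.32). Slc51a and Slc51b, which form the basolateral bile acid exporter, were at 3.03 and 3.28, and the hormone gene Fgf15 at 2.95 with 51 and 302 counts. The list summed to 7.31 CPM in control mIOs and 72.1 CPM in DSS-treated mIOs, and Fabp6 was not listed in the table.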
